A study of Arabidopsis thaliana with 10 samples.

Results

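The 40 genes described here encode the cytosolic machinery that starts translation in Arabidopsis thaliana: subunits of the initiation factors eIF1, eIF1A, eIF2, eIF3, eIF4A, eIF4B, eIF4E, eIF4G, the plant iso forms of the last pair, eIF5 and eIF5A, the poly(A)-binding proteins PAB2, PAB4 and PAB8, the elongation factor eEF2 and the translationally controlled tumour protein TCTP. They were taken by locus code from a table of 32824 genes, and all 40 passed the filter for testing, a mean of at least 1 FPKM, a fragment count divided by transcript length and by the size of the library. RNA came from shoots of seedlings grown for 10 days on solid half-strength Murashige and Skoog medium with 1% sucrose and sufficient nitrogen. The 5 WT libraries are from the accession Col-0, and the 5 OE libraries are from plants of a single line in which the constitutive 35S promoter drives BnaC02.TPS8, an oilseed rape gene of the trehalose-6-phosphate synthase family. The labels give the OE line as OE-11 and the series text as O2, and the transgene itself was not analysed here. The study asked which pathways respond to the transgene.

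Translation of most nuclear mRNAs starts when eIF4E binds the cap at the 5′ end of the message, the scaffold eIF4G joins it to the helicase eIF4A and to poly(A)-binding proteins at the other end, and the small ribosomal subunit, loaded with eIF1, eIF1A, eIF3, eIF5 and the initiator tRNA on eIF2, scans for the start codon. Plants hold a parallel cap-binding complex, eIF(iso)4F, made of eIF(iso)4E and eIF(iso)4G. The protein eIF5A, which carries the modified lysine hypusine, and eEF2, which moves the ribosome along the message, act after the start.

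A minority of the 40 genes passed the test, and those that did were higher in OE shoots. Of the 40, 7 (17.5%) rose and none fell at an adjusted p under 0.05 in limma, a linear model fitted to log2(FPKM + 1) of all 17713 tested genes, in which 2.37% of genes were called higher and 0.525% lower. The 7 that rose were PAB4, the eIF3 subunit genes EIF3E, EIF3G1 and TRIP-1, the eIF1A gene AT5G35680, the eIF5A gene FBR12 and the eEF2 gene LOS1. The log2 difference of OE minus WT was above 0 for 38 genes (95%, against 50.8% of all tested genes), with a median of 0.17, or 1.13-fold, and a range from -0.09 for EIF4G to 0.36 for PAB4. The median over all tested genes was 0.00. With median-ratio scaling, quantile normalization or organelle genes left out, 35 genes lay above 0, since the eIF1 gene AT4G27130 and eIFiso4G1, among others near 0, then fell below it. Without adjustment, 21 of the 40 had a p under 0.05, all higher in OE, where 9.89% of all tested genes were higher and 5.26% lower at that level. In 12 genes (30%) every OE library lay above every WT library, as it did in 4.41% of all tested genes, and in none did every OE library lie below every WT library (1.42% of all tested genes). In bulk shoots, a change in the share of a cell type and a change of RNA per cell cannot be told apart.

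The count of 7, beside 2.37% of all tested genes called higher, was 3 with median-ratio scaling (2.56%) and 1 with no variance trend (1.85%). It was lower in each of the 10 fits that left out a single library, in which the median log2 difference of the 40 genes was 0.13 to 0.18. The count was 5 without WT replicate 1 (2.42% of all tested genes called higher) or OE replicate 3 (1.92%). The count was 1 without WT replicate 2 (1.46% of all tested genes called higher) or WT replicate 5 (1.38%). Leaving out OE replicate 2 (1.01%) or OE replicate 4 (1.29%) also gave 1. The count was 2 without OE replicate 5 (1.69%) and 3 without WT replicate 3 (1.76%). Without WT replicate 4 or OE replicate 1 it was 4 (2.05% and 1.68%). It was 0 without the 3 libraries of highest plastid RNA (WT replicates 2 and 4, OE replicate 4). There limma called 0 of all 17713 genes, and the median log2 difference was 0.20 for the 40 genes and 0.00 for all tested genes. An unadjusted p under 0.05 was found for 15 of the 40. The share of all tested genes at that level was not counted in this fit, so 15 cannot be set against it.

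**Figure D1:**
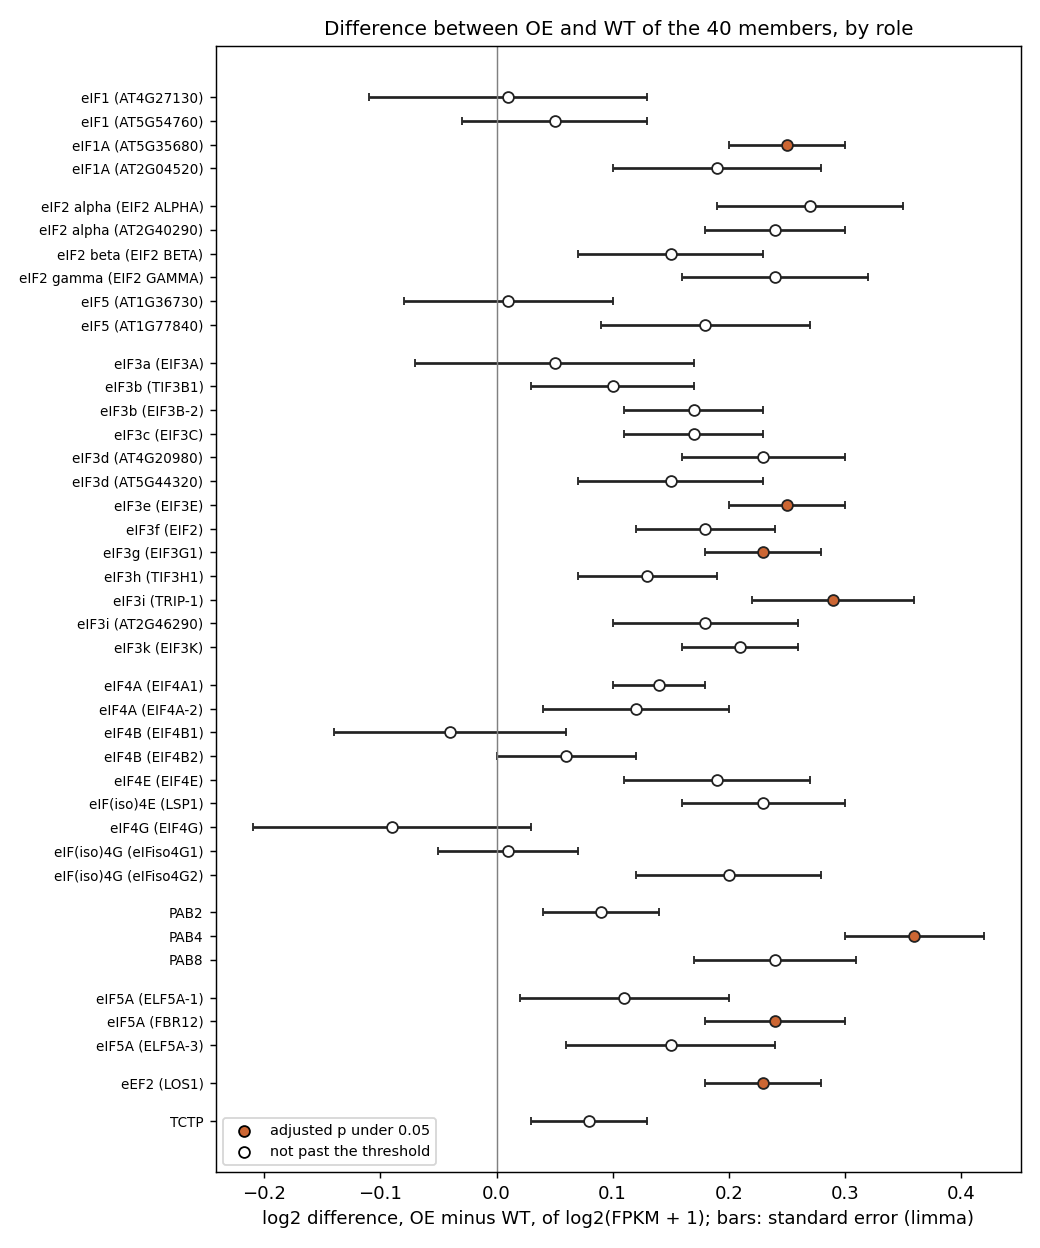
Log2 difference (OE minus WT, on the log2(FPKM + 1) scale; bars are standard errors from limma, 5 libraries a group) of the 40 genes, in blocks by role. Filled points are the 7 genes past the threshold, from 0.23 to 0.36, and EIF4B1 (-0.04) and EIF4G (-0.09) are the only points below 0.

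The libraries gave 1.82e+07 to 2.34e+07 fragments by an estimate from the value of a single fragment, and the 40 genes together made up 0.376% to 0.424% of the summed FPKM in WT and 0.430% to 0.461% in OE, without overlap. The 4 shoot markers were all high. The Rubisco small subunit gene RBCS1A had 21381 ± 1392 FPKM in WT and 21345 ± 1131 in OE (SD, n = 5). The antenna gene CAB1 had 31519 ± 1931 and 31513 ± 2836 FPKM. The Rubisco activase gene RCA had 4523 ± 328 and 4205 ± 359 FPKM. RBCS2B, a further small subunit gene, had 4589 ± 80.4 FPKM in WT and 5193 ± 290 in OE, without overlap, a ratio of 1.13 like the median fold of the 40 genes (limma adjusted p = 0.0670). All 6 root markers had means under 1 FPKM, with a sum of at most 1.63 FPKM in any library. The 6 markers of dividing cells summed to 84.6 to 128 FPKM in WT and 107 to 132 in OE, each with a log2 difference above 0 (median 0.15) and none past the threshold; their part in the result was not tested. WT replicate 3 had the lowest sum of these markers, and 35 of the 40 initiation genes lay below their WT mean there. That library was low over all tested genes too. Their median log2 deviation from the WT mean in it was -0.11 under 1500 nt, -0.11 from 1500 to 2500 nt and -0.10 over 2500 nt. RNA of the plastid genome took 0.552% to 4.28% of FPKM in WT and 0.442% to 2.9% in OE, and its part in the result was not tested.

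Among the poly(A)-binding proteins, which coat the tail of mRNAs, PAB4 (AT2G23350) showed the largest difference of the 40 genes. It stood at 85.4, 86.3, 73.8, 76.2 and 74.6 FPKM in WT replicates 1 to 5 and at 101, 107, 95.8, 106 and 99.6 FPKM in OE replicates 1 to 5. The lowest OE library thus lay above the highest WT library. The means were 79.3 ± 6.09 and 102 ± 4.70 FPKM (SD, n = 5), a ratio of 1.29 (log2 0.36, SE 0.06; limma adjusted p = 0.0124; exact two-sided permutation p = 0.00794, the smallest that 5 against 5 libraries allow). PAB4 passed in each of the 10 fits that left out a single library (highest limma adjusted p = 0.0455), the only one of the 7 genes to do so. Of those 10 fits AT5G35680 passed in 5, EIF3E and LOS1 in 4, FBR12 in 2, and EIF3G1 and TRIP-1 in 1. PAB4 did not pass without the 3 libraries of highest plastid RNA (limma adjusted p = 0.156, log2 difference 0.37).

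PAB2 (AT4G34110), the most abundant of the group, stood at 200, 197, 186, 195 and 194 FPKM in WT and at 208, 204, 197, 223 and 200 FPKM in OE, and the groups overlapped (log2 0.09, SE 0.05; limma adjusted p = 0.438; log2 0.02 with quantile normalization). PAB8 (AT1G49760) had 63.6 ± 5.09 FPKM in WT and 75.1 ± 4.83 in OE (log2 0.24, SE 0.07; limma adjusted p = 0.106), with only OE replicate 3, at 69.8 FPKM, below the highest WT value of 70.1 FPKM. The 3 genes summed to 337 ± 12.7 FPKM in WT and 384 ± 15.5 in OE, of which PAB2 made up 57.6% ± 0.726 and 53.8% ± 1.24. The other 5 poly(A)-binding protein genes of Arabidopsis on the list, PAB1, PAB3, PAB5, PAB6 and PAB7, were all below the filter, with a joint sum of at most 1.57 FPKM in any library, and PAB1 was listed at 0 throughout.

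eIF3, the largest initiation factor, bridges the small ribosomal subunit and the cap-binding complex. All 13 of its genes here had a log2 difference above 0 (EIF3A -0.01 without OE replicate 4), with a median of 0.18 and a range from 0.05 to 0.29, 3 of them rose (2.37% of all tested genes), and 9 had an unadjusted p under 0.05 and were higher (9.89% of all tested genes). In 6 of the 13 every OE library was above every WT library, as in 4.41% of all tested genes.

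TRIP-1 (AT2G46280), which encodes subunit eIF3i, a WD40 repeat protein, stood at 75.5, 74.3, 68.6, 75.8 and 79.6 FPKM in WT and at 89.4, 92.7, 81.7, 95.0 and 101 FPKM in OE. The lowest OE library, replicate 3, was only just above the highest WT library (log2 0.29, SE 0.07; limma adjusted p = 0.0376; exact permutation p = 0.00794, n = 5). Its second copy, AT2G46290, was scarce, with 4.24 ± 0.348 FPKM in WT and 4.92 ± 0.453 in OE (log2 0.18; limma adjusted p = 0.346), so that TRIP-1 made up 94.6% and 94.9% of the summed eIF3i transcripts.

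EIF3E (AT3G57290), a subunit with a PCI domain, stood at 68.5, 68.0, 61.5, 69.4 and 65.8 FPKM in WT and at 75.9, 81.4, 78.8, 81.3 and 79.3 FPKM in OE. Here the groups were set apart by a gap wider than the range of the OE values (log2 0.25, SE 0.05; limma adjusted p = 0.0261; exact permutation p = 0.00794, n = 5). EIF3G1 (AT3G11400), an RNA-binding subunit and the most abundant of the 13, stood at 79.7, 80.4, 81.9, 86.9 and 87.4 FPKM in WT and at 104, 100, 91.5, 97.2 and 97.3 FPKM in OE (log2 0.23, SE 0.05; limma adjusted p = 0.0412). OE replicate 3 was again the lowest of its group.

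The other 3 eIF3 genes without overlap missed the threshold. EIF3K (AT4G33250), a small subunit, had 80.4 ± 2.76 FPKM in WT and 93.0 ± 4.10 in OE (log2 0.21, SE 0.05; limma adjusted p = 0.0538). The eIF3f gene, whose RefSeq symbol is EIF2 (AT2G39990), had 43.2 ± 3.15 and 48.8 ± 1.21 FPKM (limma adjusted p = 0.175), and EIF3B-2 (AT5G25780), the minor copy of the eIF3b genes, 14.1 ± 0.822 and 16.0 ± 0.515 FPKM (limma adjusted p = 0.190). The highest WT and the lowest OE library of EIF3B-2 were both at 15.2 FPKM when rounded, and were set apart only before rounding.

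FPKM are scaled by transcript length, so levels can be set side by side. In WT the single-copy or major genes for eIF3g, eIF3k, eIF3h, eIF3i and eIF3e lay between 66.6 and 83.3 FPKM, and eIF3c at 56.9 FPKM. The paired genes for eIF3d summed to 59.9 ± 4.39 FPKM, with AT5G44320 making up 51.0% of the sum. Those for eIF3b summed to 54.8 ± 2.87 FPKM, with 74.2% from TIF3B1 (AT5G27640). The lowest level of a subunit was that of eIF3a, the largest protein of the complex, whose gene EIF3A (AT4G11420) had 34.9 ± 2.06 FPKM in WT and 36.7 ± 6.63 in OE (log2 0.05, SE 0.12; limma adjusted p = 0.873).

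**Figure D2:**
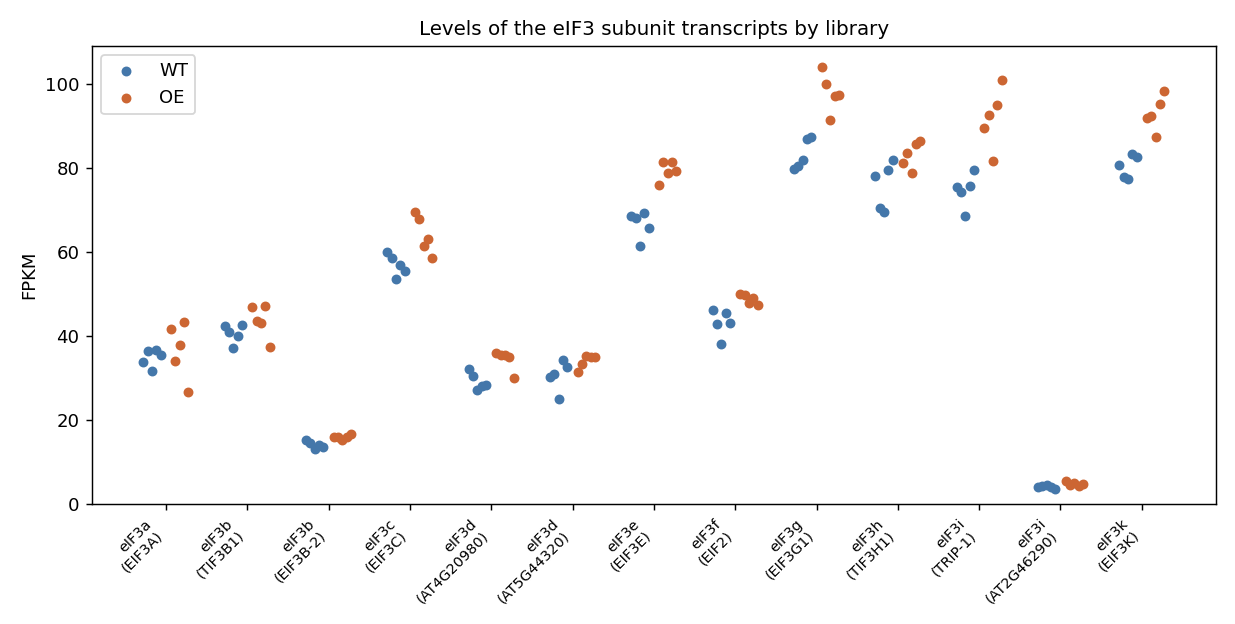
FPKM (linear axis from 0) of the 13 eIF3 subunit genes in each WT and OE library, with replicates 1 to 5 from left to right within a group. The level is lowest for the second eIF3i copy AT2G46290 (4.24 FPKM in WT). The OE points of TRIP-1, EIF3E, EIF3G1, EIF3K and EIF2 all lie above the WT points. For EIF3B-2 the lowest OE point meets the highest WT point at 15.2 FPKM after rounding.

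eIF5A was the most abundant factor of the set, and nearly all of its transcript came from a single gene. FBR12 (AT1G26630) stood at 682, 659, 584, 651 and 642 FPKM in WT and at 775, 754, 706, 759 and 820 FPKM in OE, and made up 93.4% and 93.8% of the sum of the 3 eIF5A genes. Every OE library exceeded every WT library (ratio of the means 1.18, log2 0.24, SE 0.06; limma adjusted p = 0.0407; exact permutation p = 0.00794, n = 5). ELF5A-3 (AT1G69410) had 38.7 ± 5.23 FPKM in WT and 42.8 ± 1.91 in OE, and ELF5A-1 (AT1G13950) 6.85 ± 0.813 and 7.46 ± 0.679 FPKM, with limma adjusted p = 0.459 and 0.634. Deoxyhypusine synthase (DHS, AT5G05920), which starts the making of hypusine on eIF5A and was chosen for naming with its values in view, had 5.42 ± 0.590 FPKM in WT and 6.40 ± 0.560 in OE (limma adjusted p = 0.282).

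eEF2, the translocase of the elongating ribosome, is encoded by LOS1 (AT1G56070), which stood at 353, 343, 327, 351 and 350 FPKM in WT and at 388, 423, 385, 401 and 428 FPKM in OE. The WT libraries were close together, and all OE libraries were higher (345 ± 10.6 against 405 ± 19.9 FPKM; log2 0.23, SE 0.05; limma adjusted p = 0.0275; exact permutation p = 0.00794, n = 5). With quantile normalization its log2 difference was 0.09 and it did not pass (limma adjusted p = 0.285). The related gene AT3G12915 had 5.06 ± 0.717 FPKM in WT and 5.75 ± 0.540 in OE and did not pass. TCTP (AT3G16640), a small abundant protein linked to growth, stood at 597, 574, 562, 582 and 620 FPKM in WT and at 585, 620, 597, 664 and 628 FPKM in OE, with wide overlap (log2 0.08, SE 0.05; limma adjusted p = 0.522; log2 -0.01 with quantile normalization).

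**Figure D3:**
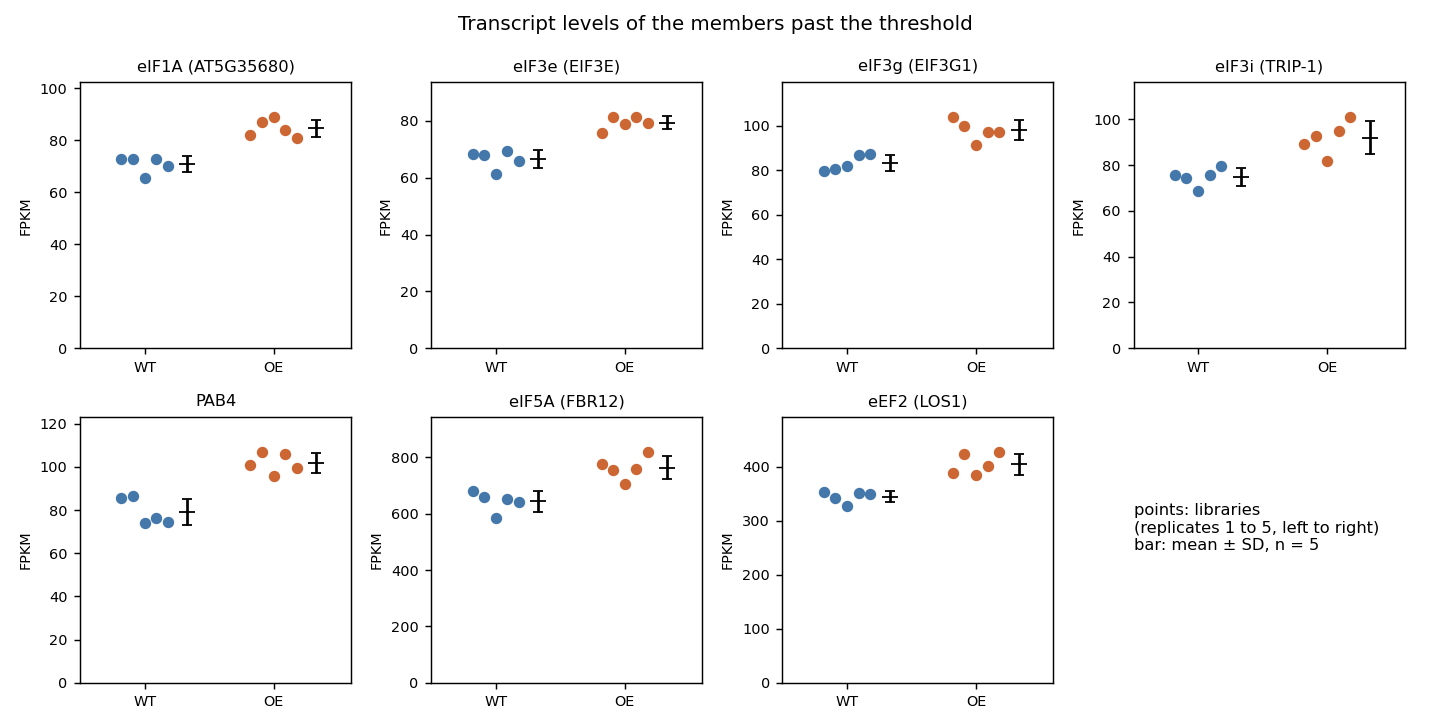
FPKM by library (points, replicates 1 to 5 from left to right; linear axes from 0) with the mean ± SD of 5 libraries for the 7 genes past the threshold. In each panel the lowest OE point lies above the highest WT point, and the ratio of the means runs from 1.17 for LOS1 to 1.29 for PAB4.

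Of the factors bound to the scanning small subunit, eIF1 and eIF1A keep it open and help to choose the start codon. The eIF1A gene AT5G35680 stood at 73.0, 73.0, 65.6, 72.9 and 70.2 FPKM in WT and at 82.0, 87.1, 89.0, 84.1 and 81.1 FPKM in OE, without overlap (log2 0.25, SE 0.05; limma adjusted p = 0.0276; exact permutation p = 0.00794, n = 5). The other eIF1A gene, AT2G04520, had 90.1 ± 12.3 FPKM in WT and 102 ± 3.30 in OE (log2 0.19, SE 0.09; limma adjusted p = 0.361), where WT replicate 3 was low at 70.6 FPKM and the log2 difference was 0.10 without it. The eIF1 gene AT5G54760 stood at 122, 142, 125, 147 and 157 FPKM in WT and at 139, 130, 146, 155 and 142 FPKM in OE, and AT4G27130 at 105 to 155 FPKM in WT and 110 to 147 in OE. Neither differed beyond the spread between libraries (log2 0.05 and 0.01, SE 0.08 and 0.12; limma adjusted p = 0.840 and 0.971), and AT4G27130 had the widest relative spread of the 40 genes in WT, a coefficient of variation of 16.2%.

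eIF2 carries the initiator tRNA and eIF5 triggers hydrolysis of its GTP. None of their 6 genes passed, where 2.37% of all tested genes were called higher. All 6 had log2 differences above 0 (median 0.21), though the eIF5 gene AT1G36730 did not with median-ratio scaling (-0.0048) or without organelle genes (-0.0034). The main eIF2 alpha gene, AT2G40290, had 56.5 ± 3.65 FPKM in WT and 67.0 ± 3.24 in OE, without overlap (log2 0.24, SE 0.06; limma adjusted p = 0.0613). The minor alpha gene, EIF2 ALPHA (AT5G05470), had 11.5 ± 1.39 and 14.0 ± 0.709 FPKM, also without overlap (log2 0.27, SE 0.08; limma adjusted p = 0.127). EIF2 GAMMA (AT1G04170), the GTP-binding subunit, had 43.8 ± 3.12 and 52.1 ± 4.85 FPKM (log2 0.24, SE 0.08; limma adjusted p = 0.130). EIF2 BETA (AT5G20920), the most abundant in WT, stood at 63.9, 61.5, 47.6, 65.1 and 65.6 FPKM in WT and at 68.0, 67.8, 64.8, 67.3 and 67.2 FPKM in OE (log2 0.15; limma adjusted p = 0.446). WT replicate 3 was far below the rest, and the log2 difference was 0.07 without it. Of the eIF5 genes, AT1G36730 had 55.0 ± 4.76 and 55.7 ± 5.87 FPKM, and AT1G77840 19.6 ± 2.13 and 22.3 ± 1.71 FPKM.

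Of the 9 genes for cap-binding proteins, scaffolds, helicase and helicase cofactor, none passed, where 2.37% of all tested genes were called higher. Log2 differences were above 0 for 7 (6 with median-ratio scaling, quantile normalization or no organelle genes, where eIFiso4G1 was below 0). An unadjusted p under 0.05 was found for 4, all higher in OE (9.89% of all tested genes were higher at that level). EIF4A1 (AT3G13920), the helicase that unwinds the leader of the mRNA, was the most abundant and stood at 216, 219, 219, 217 and 230 FPKM in WT and at 243, 254, 230, 244 and 240 FPKM in OE. The groups met only at 230 FPKM, in WT replicate 5 and OE replicate 3 (log2 0.14, SE 0.04; limma adjusted p = 0.15). With quantile normalization the log2 difference was 0.04 (limma adjusted p = 0.646). EIF4A-2 (AT1G54270) had 51.2 ± 4.64 and 55.6 ± 4.23 FPKM (limma adjusted p = 0.525).

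The transcript of the plant-specific cap-binding protein eIF(iso)4E (LSP1, AT5G35620) was more abundant than that of eIF4E (EIF4E, AT4G18040) in every library. It had 95.9 ± 7.70 FPKM in WT and 113 ± 7.53 in OE (log2 0.23, SE 0.07; limma adjusted p = 0.111), against 50.2 ± 4.87 and 57.3 ± 4.11 FPKM for eIF4E (log2 0.19, SE 0.08; limma adjusted p = 0.254). The ratio of the pair was 1.92 ± 0.188 in WT and 1.97 ± 0.15 in OE. The scaffolds were ordered the same way. The 2 eIF(iso)4G genes summed to 62.4 ± 2.37 FPKM in WT and 65.0 ± 3.65 in OE. These sums were 5.07 ± 0.477 and 5.76 ± 1.45 times the level of EIF4G (AT3G60240). The ratio was 8.15 in OE replicate 5 and 4.64 to 6.09 in the other OE libraries.

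The scaffold genes differed among themselves. eIFiso4G1 (AT5G57870) had 49.1 ± 1.31 FPKM in WT and 49.6 ± 3.59 in OE (log2 0.01, SE 0.06; limma adjusted p = 0.957), and eIFiso4G2 (AT2G24050) 13.2 ± 1.34 and 15.3 ± 0.883 FPKM (log2 0.20, SE 0.08; limma adjusted p = 0.213). EIF4G lay between 10.7 and 13.6 FPKM in WT and between 8.31 and 13.6 FPKM in OE, and its value of -0.09 on the log2 scale became 0.02 without OE replicate 5. The helicase cofactors EIF4B1 (AT3G26400) and EIF4B2 (AT1G13020) had log2 differences of -0.04 and 0.06 (limma adjusted p = 0.889 and 0.720); that of EIF4B1 was 0.03 without OE replicate 5.

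**Figure D4:**
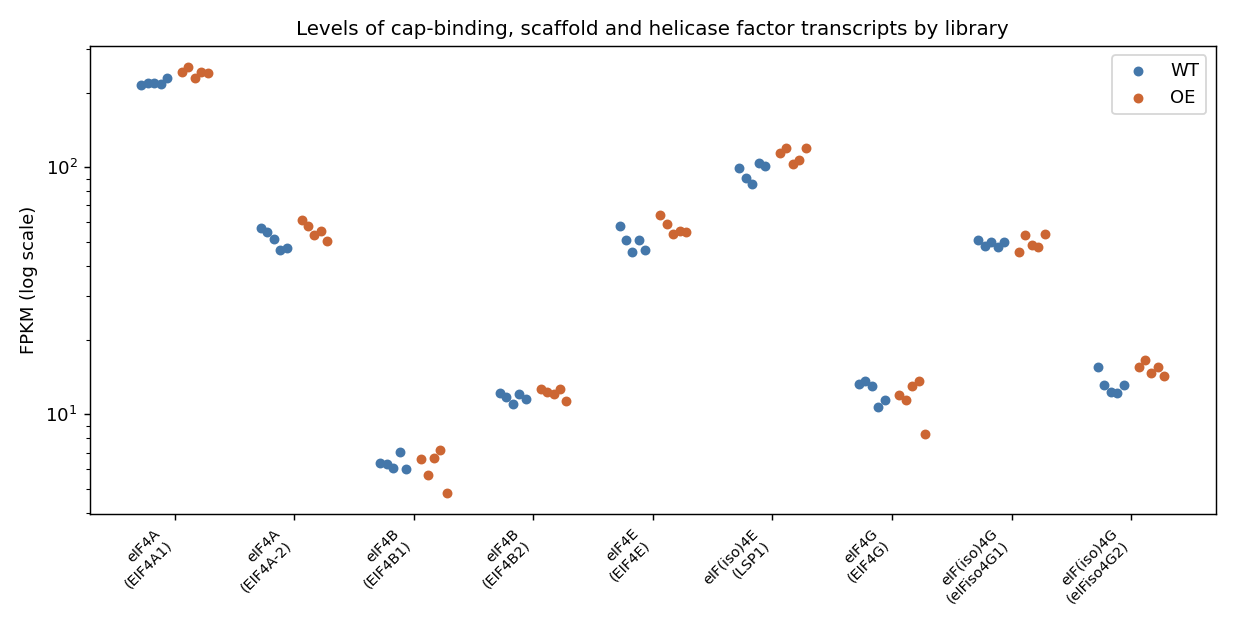
FPKM (log axis) of the 9 genes for cap-binding, scaffold, helicase and cofactor proteins in each WT and OE library, with replicates 1 to 5 from left to right within a group. eIF(iso)4E lies above eIF4E in every library, with a ratio of 1.72 to 2.19, and OE replicate 5 is the lowest OE point of EIF4B1 and of EIF4G (8.31 FPKM).

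The OE libraries differed from each other with transcript length, and OE replicate 5 was low for long transcripts. Among the 11 of the 40 genes with a longest annotated transcript over 2500 nt, the median deviation of OE replicate 5 from the OE mean was -0.10 on the log2 scale, and over all 3561 tested genes of that length it was -0.14. Over those 3561 genes OE replicates 4 and 3 lay on the other side, at 0.12 and 0.07. Across 17650 tested genes the Spearman correlation of the deviation with length was 0.18 and 0.24 for them and -0.23 for OE replicate 5. For EIF3A the library had 26.7 FPKM, where the other OE libraries had 34.0 to 43.3 FPKM. The Spearman correlation between log2 difference and transcript length across the 40 genes was -0.21 with all libraries and -0.06 without OE replicate 5; across 17650 tested genes it was -0.22 and -0.16. All points share the same 10 libraries, so these are descriptions only. The 11 long genes had a median log2 difference of 0.10, and 0.16 without OE replicate 5; the 15 under 1500 nt had 0.19 and 0.17.

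**Figure D5:**
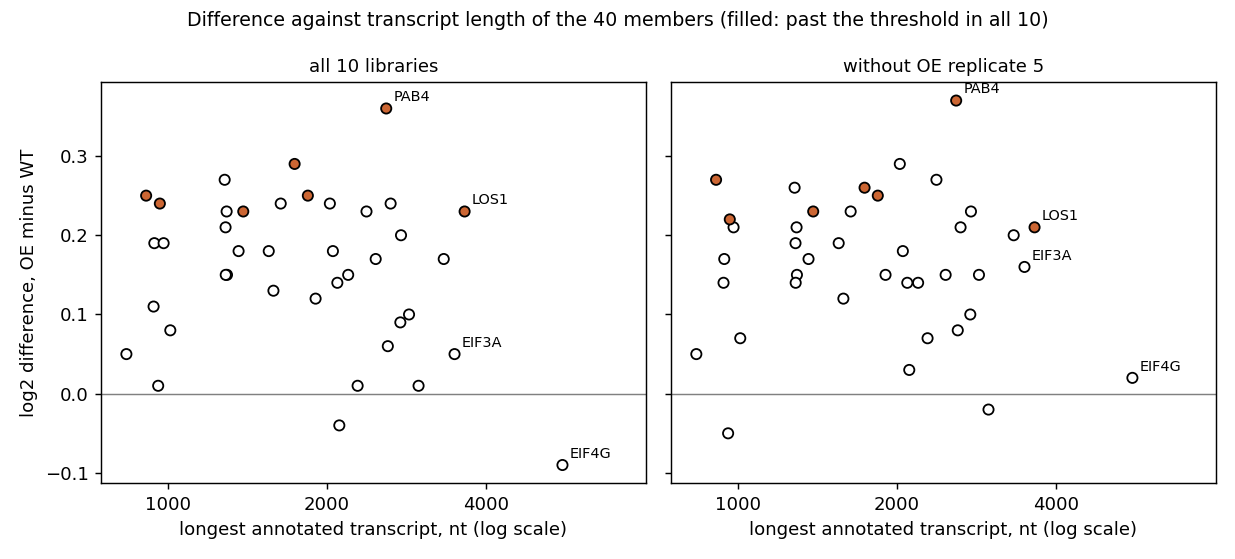
Log2 difference (OE minus WT) of the 40 genes against the length of the longest annotated transcript in nt (log axis), from all 10 libraries on the left and without OE replicate 5 on the right; filled points passed the threshold with all libraries. EIF4G moves from -0.09 to 0.02 and EIF3A from 0.05 to 0.16, while PAB4 stays at 0.36 and 0.37.

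Since copies of a factor can share sequence, the 31-base words of each transcript in the TAIR10.1 annotation were searched in the transcripts of all other genes. In 30 of the 40 genes under 2% of the words were shared, PAB4 among the 18 with none. Of the genes that rose, FBR12 shared 0.71%, LOS1 0.735%, EIF3G1 0.817% and EIF3E 1.6%. TRIP-1 shared 15.4%, with 11.1% in AT2G46270, and AT5G35680 shared 16.3%, with 11.6% in AT5G35670, so that their values are less certain; the labels do not say whether the counting used strand. The highest share was that of TIF3B1, 25.1%, with 13.7% in EIF3B-2. EIF3B-2 shared 18.7% with TIF3B1, and EIF2 ALPHA shared 11.1% with AT5G05480, so that the values of these genes are less certain too.

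The genes that rose did not have the same upstream sequence features. Genes for ribosomal proteins and translation factors in Arabidopsis often carry the telo-box (AAACCCTA, or TAGGGTTT on the other strand) and site II elements (TGGGCC or TGGGCT, or GGCCCA or AGCCCA on the other strand; TGGGCC and GGCCCA overlap in a palindrome) just upstream. Shown here are the 250 bases before the annotated start in the RefSeq annotation of TAIR10.1, 5′ to 3′ on the strand of the gene, for LOS1 and AT5G35680, which are 2 of the 4 genes with the smallest adjusted p, and for FBR12, added after its values were seen as the most abundant gene that rose. In the other pair, PAB4 and EIF3E, the bases next to the start lie in another annotated gene and are not shown. Capitals mark telo-boxes and site II elements.
LOS1 (chr1:20971743-20971992, minus strand): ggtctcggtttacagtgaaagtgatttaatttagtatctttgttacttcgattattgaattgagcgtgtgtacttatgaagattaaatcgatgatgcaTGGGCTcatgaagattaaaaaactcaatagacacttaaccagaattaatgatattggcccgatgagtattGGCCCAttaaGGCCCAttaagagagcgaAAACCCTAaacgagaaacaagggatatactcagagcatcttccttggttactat
AT5G35680 (chr5:13859086-13859335, minus strand): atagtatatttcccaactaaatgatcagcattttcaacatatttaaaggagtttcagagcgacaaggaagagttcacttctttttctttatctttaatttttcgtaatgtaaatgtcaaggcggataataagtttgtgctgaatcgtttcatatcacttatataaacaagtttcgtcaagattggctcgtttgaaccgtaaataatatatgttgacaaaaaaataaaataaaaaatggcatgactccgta
FBR12 (chr1:9205550-9205799, plus strand): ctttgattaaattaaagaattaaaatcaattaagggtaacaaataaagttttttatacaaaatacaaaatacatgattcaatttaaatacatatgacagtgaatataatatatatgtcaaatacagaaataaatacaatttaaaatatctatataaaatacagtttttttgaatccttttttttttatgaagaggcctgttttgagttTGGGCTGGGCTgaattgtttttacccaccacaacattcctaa
LOS1 holds 1 telo-box and 3 site II elements, FBR12 holds 2 site II elements that share a base, and AT5G35680 holds neither motif. Counted over the full 250 bases, including bases that lie in a neighbouring gene and are not free upstream sequence, a telo-box was present in 4 of the 40 genes (10%), in 18.9% of 180 tested genes for cytosolic ribosomal proteins and in 3.75% of 17649 tested nuclear genes. A site II element was present in 14 of the 40 (35%), in 68.3% of the ribosomal protein genes and in 23.6% of the nuclear genes. Of the 7 genes that rose, 3 held a site II element and 1 a telo-box, and of the other 33, 11 and 3. These are matches of letters, and the gene starts are those of the reference, since the build behind the deposited values is not given in the sources used here.

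The remaining translation genes were close to the set in median difference, but a larger share of them lay below 0. Of 47 listed genes for other initiation factors, eIF2B and the kinase branch of GCN2, other poly(A)-binding proteins, termination and recycling factors and partners of eIF5A, eEF2 and TCTP, 36 could be tested. limma called 0 of them in either direction, where 2.37% of all tested genes were called higher and 0.525% lower. Of the 36, 27 had a log2 difference above 0 (50.8% of all tested genes) and 9 below it. The median was 0.14, and 13 had an unadjusted p under 0.05, all higher in OE (9.89% of all tested genes). The 47 genes summed to 987 to 1222 FPKM in WT and 1112 to 1181 in OE, with overlap. The most abundant, AT5G54940, listed with the other initiation factors, had 417 ± 69.2 FPKM in WT and 380 ± 16.9 in OE (log2 -0.12, SE 0.10; limma adjusted p = 0.639). This gene alone ranged from 345 to 488 FPKM in WT and from 362 to 407 in OE, so that it weighs heavily in the sums. In 3 of the 36 every OE library was above every WT library, against 4.41% of all tested genes. One was AT1G66070, annotated as an eIF3 subunit, with 15.9 ± 1.34 FPKM in WT and 18.5 ± 0.943 in OE (limma adjusted p = 0.182). The others were AT5G25754 and AT5G25757, annotated as PAF67, a name that in mammals also stands for eIF3l. They stood at 18.3 ± 0.623 and 32.3 ± 0.666 FPKM in WT and at 20.7 ± 0.339 and 36.2 ± 1.2 in OE (log2 0.17 and 0.16; limma adjusted p = 0.110 and 0.123). The choice to name these 3, AT5G54940, AT3G12915 and GCN2 was made after seeing their values. The kinase GCN2 (AT3G59410), which phosphorylates eIF2 alpha under amino acid shortage, had 22.0 ± 4.64 FPKM in WT and 21.8 ± 4.83 in OE (limma adjusted p = 0.973). In both groups its value was lowest in replicate 5 (15.4 FPKM in WT, 14.7 in OE) and highest in replicate 1 (27.1 and 27.2 FPKM).

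Next to the ribosome itself the differences of the initiation genes were small. Of 180 tested genes annotated to cytosolic ribosomal proteins, 154 rose (2.37% of all tested genes), with a median log2 difference of 0.43. Of 10 genes for elongation factors 1 alpha and 1B, 6 rose, beside the same 2.37%, with a median of 0.31. The median of the 40 genes was 0.17, and their highest value, 0.36 for PAB4, lay below the median of the ribosomal proteins. The difference between these groups was not tested.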

How the data were processed

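Libraries were grouped by their titles into 5 WT and 5 OE. The authors deposited 1 FPKM column per library for 32824 genes. Tools named per the submitters' processing notes, with no roles stated, are kallisto 043.1, sleuth, R 3.5.1, Trimmomatic 0.36 and FastQC. Which build and gene models they used is not given in the sources used here. The FPKM unit was checked: sums of value times transcript length varied less (coefficient of variation 0.824%) than column sums (2.45%). Depth was estimated from single-transcript genes of at least 800 nt, for an assumed fragment length of 200 nt. Intervals for counting error were not given, since the table holds no counts.

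The 17713 genes with a mean of at least 1 FPKM were fitted with limma 3.58.1 in R 4.3.3 on log2(FPKM + 1), with a pseudocount of 1, an intercept and genotype, a variance trend, two-sided, with Benjamini-Hochberg adjustment over all of them and a threshold of 0.05. Differences on this scale understate changes of weakly expressed genes. Single genes were also compared by exact permutation over all 252 assignments of libraries. The labels do not say whether libraries of a group came from separate containers. The p-values set the difference between groups against the spread between these libraries only. With a single OE line, effects of the transgene, of the line and of any shared container cannot be told apart.

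The set and the lists were chosen with earlier results of these data known. Values per library are given for genes past the threshold and the most abundant gene of each role. Alternatives were other pseudocounts (0.1, 0.5), filters, scalings, no trend, sample weights, replicate block, and left-out libraries. Annotation was TAIR10.1. Figures used matplotlib 3.10.9.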

Additional observations from a re-analysis of the deposited data

Results flagged for a closer look

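In 5 of 80 groups of 5 libraries (40 genes, WT and OE), a single library stood far from the others for its group's range; chance gives about 1 in 20. EIF2 BETA (AT5G20920) had 47.6 FPKM in WT replicate 3, where the next lowest WT library had 61.5 FPKM, and 64.8 FPKM in OE replicate 3, where the next lowest OE library had 67.2 FPKM. The eIF3d gene AT4G20980 had 30.0 FPKM in OE replicate 5, where the next lowest had 35.1 FPKM. EIF4A1 (AT3G13920) had 230 FPKM in WT replicate 5, where the next highest had 219 FPKM. eIFiso4G2 (AT2G24050) had 15.5 FPKM in WT replicate 1, where the next highest had 13.1 FPKM. None of the 7 genes that rose was among these.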

How the results depend on the processing

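Of the 40 genes, 7 rose in the chosen fit, and none fell in any fit. In the chosen fit 2.37% of all tested genes were called higher. The number of the 40 that rose was 3 with median-ratio scaling (2.56% of all tested genes) and 1 with no trend (1.85%). It was 0 without the 3 libraries of highest plastid RNA (0%). When each library was left out in turn it ran from 1 to 5 (1.01% to 2.42% of all tested genes). With no filter it was 7 (1.43% of all tested genes), and with a filter at 5 FPKM 9 (3.81%). With quantile normalization it was 6 (2.76%), with sample weights 5 (2.68%) and without organelle genes 6 (2.11%). With the replicate number as a block it was 9 (3.34% of all tested genes), of which 6 were among the 7, and EIF3G1 was not. Same-numbered libraries correlated best with each other only for numbers 1 and 5 (correlations of deviations from -0.0864 to 0.199). The numbers were not taken as pairs in the chosen fit. This check cannot exclude a trend with replicate number shared by both groups, which was not tested. As examples chosen with their values in view, GCN2 went from 27.1 FPKM in replicate 1 to 15.4 in replicate 5 of WT. In OE it went from 27.2 to 14.7 FPKM. AT4G27130 went from 105 to 155 FPKM in WT and from 110 to 147 in OE. Other translation genes past the threshold numbered 0 in the chosen fit (2.37% of all tested genes called higher). The number was also 0 in each alternative but the replicate block, where it was 1 (3.34%).

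Over single genes, the direction turned only for genes not past the threshold. The eIF1 gene AT4G27130 was at 0.01 in the chosen fit, at -0.03 with quantile normalization, sample weights or without the 3 plastid-rich libraries, at -0.0044 with median-ratio scaling, at -0.0029 without organelle genes, and from -0.05 to 0.10 over the left-out libraries. AT1G36730 was at -0.0048 with median-ratio scaling, at -0.0034 without organelle genes and from -0.02 to 0.07 over the left-out libraries. eIFiso4G1 was at -0.0017 with quantile normalization, at -0.01 with median-ratio scaling or without organelle genes, at -0.0028 without the plastid-rich libraries and from -0.02 to 0.04 over the left-out libraries. TCTP was at -0.01 with quantile normalization. Over the left-out libraries EIF3A ran from -0.01 to 0.16, EIF4B1 from -0.09 to 0.03 and EIF4G from -0.14 to 0.02. The lost calls were lost with little change of the difference: EIF3E ranged from 0.22 to 0.27, LOS1 from 0.21 to 0.25, FBR12 from 0.21 to 0.27, EIF3G1 from 0.21 to 0.26, TRIP-1 from 0.26 to 0.33 and AT5G35680 from 0.22 to 0.27 over the left-out libraries. Quantile normalization put LOS1 at 0.09. The cause was not tested. The scarcest genes, ELF5A-1 and AT2G46290, rest on an estimated 74.9 and 78.8 fragments in their lowest library.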
